A study of Mus musculus with 4 samples.

Results

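The genes described here encode the proteins of the cytosolic ribosome. They were taken from the array's annotation by symbol: every probe set that named exactly 1 gene with a symbol of the Rpl or Rps series, Rplp0 to Rplp2 or Rpsa, with the S6 kinases left out. This gave 49 probe sets for 35 genes, 17 with large subunit and 18 with small subunit symbols, of 8251 genes with a probe set of their own. Each gene is represented by its brightest probe set over the 4 arrays. By the same symbol rule, Rps27l, Rpl7l1, Rps4l and Rpl39l entered the set, which are paralogues of ribosomal protein genes. A further 39 probe sets named a ribosomal protein gene together with pseudogenes or other genes, so that Rplp1, Rpl5, Rps6 and others were not measured alone.

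The study compared testis RNA of Tslc1-/- and Tslc1+/+ male mice of 16 weeks, all labelled C57BL/6J, with 2 arrays of each genotype. Tslc1, now named Cadm1, encodes a cell adhesion molecule, and the labels do not give how the allele was made. The labels give no treatment, and nothing in them says how many animals stand behind an array or whether tissue was pooled. The p-values below therefore measure only the spread between these arrays. Values are MAS5 signals, the brightness of a probe set after the authors scaled each array to a common mean, and changes are log2 differences of signal + 50, Tslc1-/- minus Tslc1+/+. Between genes the signal also depends on the probes, so an order of signals is not an order of RNA amounts.

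A ribosome has a small subunit, which holds the messenger RNA and decodes it, and a large subunit, which joins the amino acids and has the exit tunnel for the new protein. Each subunit carries 1 copy of most of its proteins, and cells make these proteins in balanced amounts. Their messenger RNAs are among the most abundant of any cell and begin with a run of pyrimidines, the TOP tract, through which their translation follows nutrient signalling by mTOR. In the testis, the X chromosome is silenced in meiotic spermatocytes and remains largely so in spermatids. Some X-linked ribosomal protein genes have autosomal copies that are used in male germ cells, among them Rpl39l for Rpl39.

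Promoter windows of RefSeq, 250 bases before to 50 after each annotated start in GRCm38.p6, were found for 28 of the 35 genes. Those of Rpl32, Rpl7, Rpl8, Rps14, Rps20, Rps29 and Rps4l were not in the table. The 100 bases before the start are shown for Rpl37a and Rps27, whose signals were higher on both Tslc1-/- arrays, and for the X-linked Rpl39 with its autosomal paralogue Rpl39l. Capitals mark matches to any of the motifs searched, each on both strands: CTTTCC, as in a TOP tract; CCGGAA, the core bound by ETS factors; TATAAA, the TATA box; and GCCATNTT, the core bound by YY1. CTTTCC and the reverse of CCGGAA can share bases.
Rpl37a, chr1:72711160-72711259, plus strand: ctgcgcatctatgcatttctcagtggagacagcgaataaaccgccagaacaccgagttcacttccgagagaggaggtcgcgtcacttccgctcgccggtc
Rps27, chr3:90213649-90213748, minus strand: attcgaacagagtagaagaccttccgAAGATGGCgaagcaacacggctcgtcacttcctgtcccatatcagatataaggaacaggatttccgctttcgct
Rpl39, chrX:37085223-37085322, minus strand: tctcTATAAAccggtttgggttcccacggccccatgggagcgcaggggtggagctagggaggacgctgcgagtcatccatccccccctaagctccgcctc
Rpl39l, chr16:10170128-10170227, plus strand: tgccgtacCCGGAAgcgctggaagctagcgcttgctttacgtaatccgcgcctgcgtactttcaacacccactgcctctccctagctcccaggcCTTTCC

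In these 100 bases, Rpl37a held none of the 4 motifs and Rps27 held the YY1 core on the reverse strand. Rpl39 and Rpl39l shared none of them: Rpl39 had the TATA box, while Rpl39l had the ETS core and a CTTTCC that ended at the base before the start. Over the whole windows, CCGGAA was present on either strand for 17 of the 28 genes (60.7%), against 16.7% of the 27025 genes in the table. Both Rpl39 and Rpl39l are among the 17, so the contrast between them holds for the printed bases only. CTTTCC was present on the gene's strand for 14 (50.0%), against 16.0%, and on either strand for 17 (60.7%), against 29.3%. GCCATNTT was found for 7 (25.0%), against 6.96%, and TATAAA for 4 (14.3%), against 15.7%, both on either strand. These are shares of letters in annotated windows, and the share of the table includes genes that encode no protein. A gene was counted if any of its windows held the motif. Of the 28 genes, 7 had several windows, and the share of such genes in the table is not given here.

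The labels were first checked with the targeted gene. The brightest Cadm1 probe set gave 3450 and 4028 in Tslc1+/+ and 775.9 and 604.5 in Tslc1-/-, a log2 change of -2.36. A second one of nearly the same mean signal gave 3960 and 3925 against 443.5 and 444.9, a log2 change of -3.01. Both carry a suffix by which the array's makers flagged probes that may also bind other transcripts. The deleted part is not given in the labels, so this check holds only if the probes lie within it or the whole transcript is lost. Across the 7975 tested probe sets, the log2 signals of array pairs correlated with r from 0.923 to 0.939, and across the 28 tested ribosomal protein genes with r from 0.984 to 0.995. Both are correlations across genes, which are not replicates.

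Ribosomal protein transcripts took similar shares of the signal on the 4 arrays. The 35 genes together made up 2.41% and 2.47% of the summed signal on the Tslc1+/+ arrays and 2.43% and 2.27% on the Tslc1-/- arrays. Without Rpl41, the brightest, the share was 1.84% on both Tslc1+/+ arrays and 1.85% and 1.83% in Tslc1-/-. The lower share of Tslc1-/- replicate 2 was mostly that of Rpl41. Because each array was scaled to a common mean, a change of all RNA together would not be seen, and in whole testis fewer cells of a type and less RNA per cell cannot be told apart.

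Of the 35 genes, 28 had a mean signal of at least 200 and were tested, 14 of each subunit. The other 7, described last, were too dim for a test. Of the 28, 1 rose and none fell (limma, Benjamini-Hochberg adjusted p under 0.05 over all 7975 probe sets). Over all tested probe sets, 1.08% passed, with 0.238% higher and 0.840% lower. The median change of the 28 genes was -0.02, against 0.02 over all tested probe sets. At signals of at least 5000 the order was the other way, with -0.01 for 17 of the genes and -0.03 for all 714 probe sets. At an unadjusted p under 0.05 there were 5 of the 28, with 2 higher and 3 lower, against 10.0% of all tested probe sets. The genotypes did not overlap for 12 genes, with Tslc1-/- higher for 5 and lower for 7, against 40.0% of all tested probe sets. Of the 5, Rpl13a reached the filter only through its Tslc1-/- arrays (mean 324.6, against 153.8 in Tslc1+/+). The 12 genes were 42.9% of the 28, near that background. The 1 and the 5 genes were larger shares of the 28 than their backgrounds, by counts of few genes, and no test of that difference was run.

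**Figure D1:**
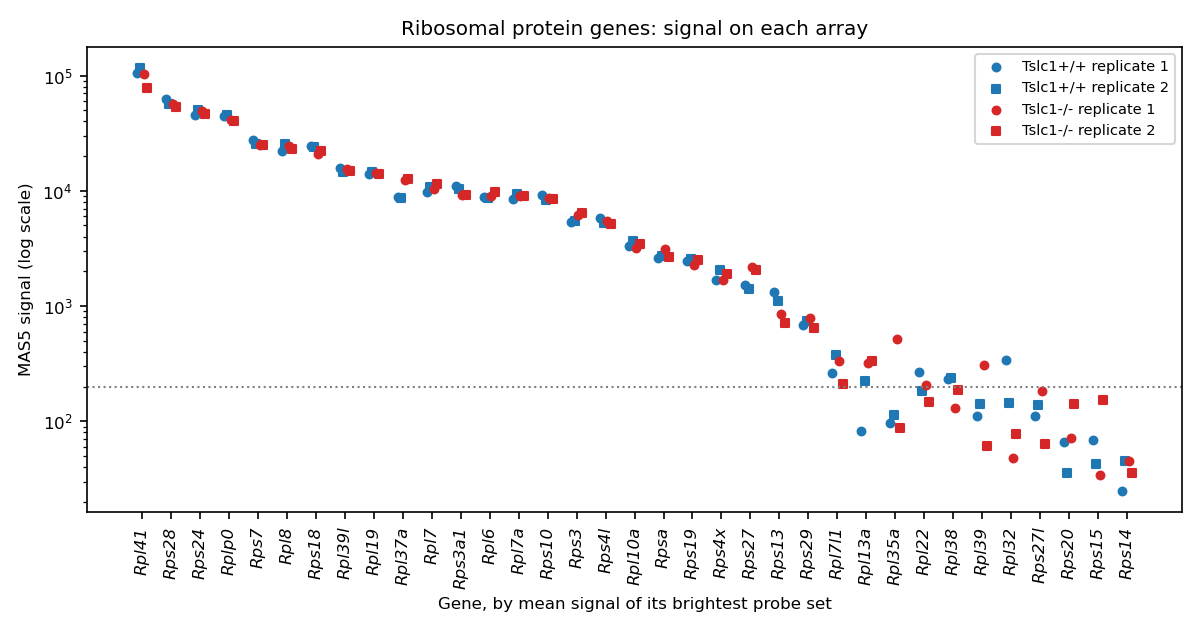
MAS5 signal (log axis) of the brightest probe set of each of the 35 ribosomal protein genes on the 4 arrays, Tslc1+/+ in blue and Tslc1-/- in red, with genes ordered by mean signal. The dotted line is the mean signal of 200 required for a test; above about 5000 the points of a gene lie close together, with Rpl37a as the gene whose genotypes stand furthest apart, and below the line they scatter.

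Precision differed widely between the genes, since the spread of log2 values falls with signal. The 17 genes with a mean signal of at least 5000 had a median SD over the 4 arrays of 0.08, against 0.12 for all 714 tested probe sets of that brightness. That SD was taken across genotypes, so it includes any difference between genotypes as well as the spread between arrays of a genotype. The 95% interval of the change lay within 1.5-fold either way for 16 of these 17 genes. Of all 28 tested, 21 had such an interval, and 23 had an interval within 2-fold. Of the 17 bright genes 1 passed the test, against 7.28% of all probe sets at that brightness. By unadjusted p under 0.05 there were 3 of the 17, against 26.5%. Genotypes did not overlap for 9 of the 17, against 55.0%. The median size of the change, regardless of sign, was 0.09 for them and 0.13 for all probe sets of that brightness.

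**Figure D2:**
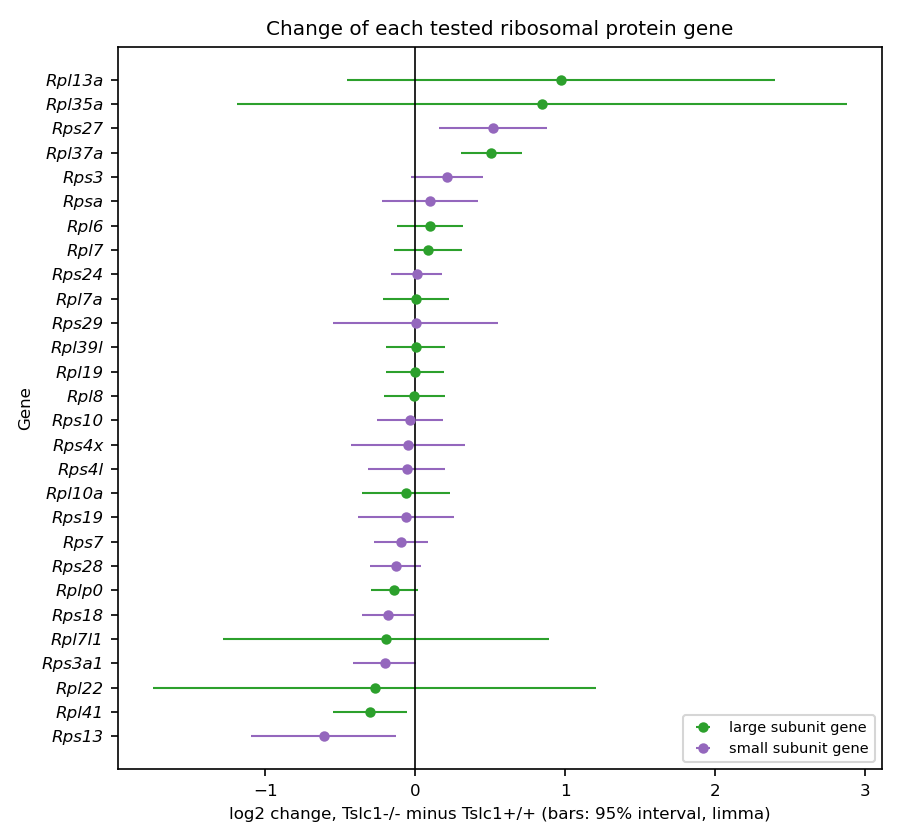
Log2 change of each of the 28 tested genes, Tslc1-/- minus Tslc1+/+, with the 95% interval of the limma fit, large subunit genes in green and small subunit genes in purple. Most points lie close to 0; Rpl37a and Rps27 lie near 0.5 with intervals above 0, and the dim genes Rpl13a, Rpl35a, Rpl22 and Rpl7l1 have wide intervals.

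The gene that rose was Rpl37a, which encodes a small zinc-binding protein of the large subunit. Its signal was 8817 and 8716 on the Tslc1+/+ arrays and 12384 and 12592 on the Tslc1-/- arrays. The arrays of each genotype lay close together and the genotypes far apart. The means were 8767 ± 71.8 and 12488 ± 147 (SD, n = 2), a 1.42-fold rise. On the log2 scale this was 0.51, with a 95% interval from 0.30 to 0.71 (standard error 0.09; limma, adjusted p = 0.0276). The change was between 0.50 and 0.57 under each of 13 alternatives, and 7 of them called it. The call was lost on leaving out each of the 4 arrays in turn (adjusted p by limma, 0.157 to 0.168), where the log2 change was 0.50 to 0.52. Each such fit has 1 array of a genotype, assumed to vary like those of the other, and so less power. It was also lost with all probe sets tested (adjusted p = 0.066) or with a spread that did not follow signal (adjusted p = 0.574).

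Rps27, a zinc-finger protein of the small subunit, had a change of the same size. Tslc1+/+ arrays gave 1529 and 1410, Tslc1-/- arrays 2198 and 2054, with no overlap. The means were 1470 ± 83.7 and 2126 ± 102 (SD, n = 2), and the log2 difference was 0.52, with a 95% interval from 0.16 to 0.88 (limma, adjusted p = 0.242). It did not pass here or under any of 13 alternatives (adjusted p = 0.134 to 0.633). At its lower signal the standard error was 0.16, against 0.09 for Rpl37a.

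Rps3 and Rpl6 were the other genes of good signal that read higher on both Tslc1-/- arrays. Rps3 lines the path by which messenger RNA enters the small subunit. Its signals were 5359 and 5515 in Tslc1+/+ and 6190 and 6409 in Tslc1-/-, a log2 change of 0.21 (limma, adjusted p = 0.564). Rpl6, a large subunit protein, read 8810 and 8609 against 8926 and 9718, with a log2 change of 0.10. The Rpl6 gap between genotypes was smaller than the gap between its Tslc1-/- arrays. The fifth such gene, Rpl13a, was dim and is described with the dim genes.

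Among the 28 tested genes, Rps13 had the largest change towards lower readings in Tslc1-/-. Rps13 is a core protein of the small subunit, near the bridges to the large one. Its signals were 1335 and 1116 in Tslc1+/+ and 854.9 and 714.3 in Tslc1-/-, a log2 change of -0.61 with a 95% interval from -1.10 to -0.13 (limma, adjusted p = 0.34). The genotypes did not overlap, but the gene did not pass under any of 12 alternatives. Its probe set carries another suffix (_r), so its probes may not be specific to this gene.

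Rpl41, which encodes a very short basic peptide of the large subunit, was the brightest probe set of the group. Tslc1+/+ arrays gave 105619 and 115893, Tslc1-/- arrays 103249 and 78239. Only Tslc1-/- replicate 2 stood clearly below the others. The log2 change was -0.30 with a 95% interval from -0.55 to -0.05 (limma, adjusted p = 0.37). Without that array it was -0.10 and without Tslc1-/- replicate 1 it was -0.50. With quantile normalization it was -0.13. With the replicate number as a block, which the labels do not say pairs the arrays, it stayed at -0.30 and passed (limma, adjusted p = 0.0429). This probe set also carries a cross-hybridisation suffix.

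A group of 5 bright genes read a little lower on both Tslc1-/- arrays: Rplp0, Rps18, Rps3a1, Rps28 and Rps7. Such readings were common at that brightness: of all 714 tested probe sets with a signal of at least 5000, 244 lay lower without overlap. Among the 17 ribosomal protein genes it was 6, a similar share, namely these 5 and Rpl41. Rplp0 anchors the stalk of the large subunit that recruits translation factors. Its signals were 44218 and 44990 in Tslc1+/+ and 41043 and 39964 in Tslc1-/-, a log2 change of -0.14 with a 95% interval from -0.29 to 0.02 (limma, adjusted p = 0.558). Rps18, at the head of the small subunit, read 24358 and 24126 against 20796 and 21954, a log2 change of -0.18 (limma, adjusted p = 0.478). Rps3a1 read 10948 and 10329 against 9217 and 9219, a log2 change of -0.21 (limma, adjusted p = 0.517).

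In these genes the genotypes were separated, but by at most 1.15-fold. Rps28, beside the messenger RNA exit, read 63022 and 57108 against 56666 and 53001, a log2 change of -0.13. Rps7 read 27831 and 25447 against 24743 and 25099, a log2 change of -0.09. For these 2 genes, the highest Tslc1-/- array was nearer to the lowest Tslc1+/+ array than the arrays of Tslc1+/+ were to each other. With quantile normalization, the log2 change was -0.01 for Rps18 and -0.02 for Rplp0, and Rps7 turned to 0.07.

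The remaining bright genes had differences smaller than their standard errors. Rpl19, a large subunit protein at the bridge to the small subunit, had by its brightest probe set the smallest spread of the whole set. Its signals were 13887 and 14451 against 14396 and 13939, an SD over the 4 arrays of 0.03 on the log2 scale. Its means were 14169 ± 399 and 14167 ± 323 (SD, n = 2), with a 95% interval of the log2 change from -0.19 to 0.19. Rpl8, a protein near the peptidyl transferase centre, had means of 23971 ± 2448 and 23807 ± 838 (SD, n = 2). Rpl7a read 8929 ± 608 and 8959 ± 29.3, Rps10 8772 ± 531 and 8548 ± 58.3, and Rpl7 10271 ± 816 and 10899 ± 706 (SD, n = 2). The log2 changes of these 5 genes lay between -0.04 and 0.09. Rpl7a shares the source sequence of its probe set, in the annotation, with probe sets of its neighbours Surf1 and Surf2.

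Rpl39l, the germ cell paralogue of a protein that lines the exit tunnel, gave a strong and even signal. Tslc1+/+ arrays gave 15630 and 14646, Tslc1-/- arrays 15382 and 14923, so the genotypes were interleaved. The log2 change was 0.00 with a 95% interval from -0.19 to 0.20 (limma, adjusted p = 0.997), and over the alternatives it lay between -0.04 and 0.06. The X-linked Rpl39 was measured by a dim probe set, at 111.2 and 141.0 in Tslc1+/+ and 308.4 and 61.6 in Tslc1-/-. The signals of Rpl39 and Rpl39l come from different probes, so their ratio gives no ratio of RNA. Rpl39 had too little signal for a change to be detectable.

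Rps4x, the other X-linked gene, is a core protein of the small subunit and was read by 5 probe sets. The brightest read 1685 and 2034 against 1697 and 1881, a log2 change of -0.05 with a 95% interval from -0.43 to 0.33. A second probe set read 800.1 and 594.2 against 43.3 and 81.9, a log2 change of -2.74 that did not pass (limma, adjusted p = 0.0598). With a mean of 62.6 in Tslc1-/-, that probe set passed the signal filter only through Tslc1+/+. The 3 others had log2 changes from -0.03 to 0.21 in a fit of all probe sets, at mean signals of 48.0 to 235. The Rps4x probe sets thus disagreed. The one with the large difference and 2 of the 4 others carry the suffix _r. Its autosomal paralogue Rps4l read 5764 and 5208 against 5427 and 5112, a log2 change of -0.06, while its second probe set, at a mean signal of 239, had 0.75. The brighter Rps4l probe set carries a cross-hybridisation suffix (_s), so its signal may not be that of Rps4l alone.

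Probe sets of the same gene were compared for the 10 genes that had more than 1. Of the 6 with at least 2 tested probe sets, 4 had probe sets of opposite sign: Rpl10a, Rpl19, Rps24 and Rps4l. The brightest Rpl19 probe set was at -4.98e-05, so close to no change that its sign has no meaning. None of the probe sets of these 4 genes passed the test. The dimmer Rps24 probe set passed the signal filter only through Tslc1+/+ (mean 301.2, against 134.8 in Tslc1-/-). The dimmer Rps4l probe set did so only through Tslc1-/- (mean 313.0, against 165.7 in Tslc1+/+). Rps28 was the case of agreement, with log2 changes of -0.13, -0.13 and -0.15 on 3 probe sets with mean signals of 57449, 24591 and 1229. Of these 3, the first carries a cross-hybridisation suffix (_f) and the last the suffix _r.

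Rps24, a small subunit protein, shows the limits of the naming. Its brightest probe set read 45255 and 49911 against 49110 and 46546, a log2 change of 0.01. In the annotation this probe set lists the same source sequence as that of Rpl7, so which of the genes it reads is uncertain. This probe set carries the suffix _r, and the brightest one of Rpl7 a cross-hybridisation suffix (_s). The other Rps24 probe set read 307.2 and 295.1 against 138.1 and 131.6, or -0.93 on the log2 scale (standard error 0.63; limma, adjusted p = 0.695). That probe set passed the signal filter only through Tslc1+/+, and no direction can be given for Rps24.

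**Figure D3:**
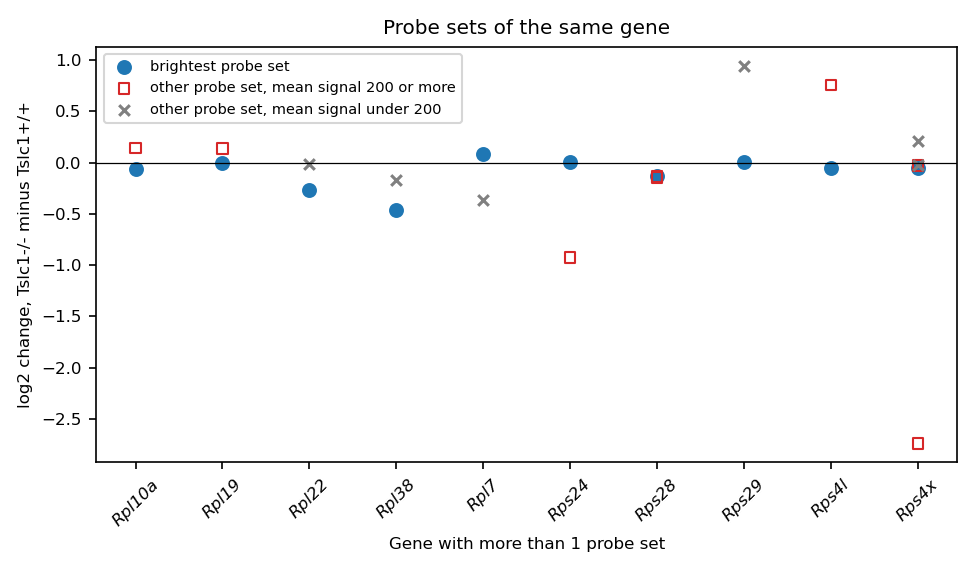
Log2 change, Tslc1-/- minus Tslc1+/+, of every probe set of the 10 genes with more than 1, from the fit of all probe sets: the brightest as blue circles, others of mean signal 200 or more as red squares and dimmer ones as grey crosses. The 3 Rps28 probe sets coincide near -0.13, while 1 Rps4x probe set lies at -2.74 and the others near 0.

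Apart from Rps27, Rps13 and the disagreeing Rps4x probe sets, the genes of moderate signal were Rps19, Rpsa, Rpl10a and Rps29, and their genotypes overlapped. Rps19, needed for maturation of the small subunit and mutated in Diamond-Blackfan anaemia, had 2505 ± 83.8 and 2399 ± 154 (SD, n = 2), or -0.06 on the log2 scale. Rpsa, the small subunit protein also known as the laminin receptor, had 2675 ± 92.8 and 2878 ± 317 (SD, n = 2) and a log2 change of 0.10. Rpl10a, a protein of the flexible L1 stalk, had 3486 ± 261 and 3335 ± 193 (SD, n = 2) and -0.06. Rps29, a zinc-binding small subunit protein, had 715.8 ± 34.8 and 721.0 ± 104 (SD, n = 2), and its 95% interval from -0.55 to 0.56 was wide. Of 18 genes linked to Diamond-Blackfan anaemia, 8 were measured and tested and none passed, against 1.08% of all tested probe sets. The lack of a call in a list this short says little.

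The dimmest tested genes had scattered readings. Rpl13a, a protein of the large subunit often used as a reference gene, read 82.5 and 225.2 against 318.0 and 331.2, a log2 change of 0.97 with a 95% interval from -0.46 to 2.40. Its Tslc1+/+ mean of 153.8 lay under the signal filter, which it passed only through the Tslc1-/- arrays. Rpl35a passed the signal filter through 1 array: Tslc1+/+ arrays gave 96.9 and 112.5, Tslc1-/- arrays 514.9 and 87.0. The log2 difference was 0.85 with all arrays, -0.17 without Tslc1-/- replicate 1 and 1.87 without Tslc1-/- replicate 2. Rpl22 read 266.3 and 182.5 against 207.1 and 146.5, and Rpl7l1, a nucleolar paralogue of Rpl7, 260.3 and 375.4 against 332.3 and 212.8. The Tslc1-/- mean of Rpl22 was 176.8, so Rpl22 passed the filter only through Tslc1+/+. No difference of these genes was detectable at such signals.

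The 7 genes below the filter were Rpl38, Rpl39, Rpl32, Rps27l, Rps20, Rps15 and Rps14. Their mean signals ran from 37.6 for Rps14 to 196.1 for Rpl38, just under the limit, while Rpl22 with 200.6 and Rpl35a with 202.8 lay just above it. Rpl32 gave 339.4 and 144.9 against 48.4 and 77.7. Rpl38 read 231.2 and 237.1 against 129.2 and 186.9, and Rps20 65.6 and 35.6 against 71.3 and 142.1. Those 3 did not overlap between genotypes, but in a fit of all probe sets none of the 7 passed. Among tested probe sets 40.0% did not overlap either, and the share among dimmer ones is not given here. Rps27l, a paralogue of Rps27 that p53 induces, read between 63.6 and 183.5. A low signal of such abundant transcripts is a property of the probe set as much as of the RNA.

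As reference genes, the members in common use were unequal on this array. Rplp0 and Rps18 had means 1.10-fold and 1.13-fold lower in Tslc1-/-, with neither passing the test. Rpl13a and Rpl32 were too dim to serve, and Rps29 had a change of 0.00 with a wide interval. Rpl19 and Rpl39l, with SDs over the 4 arrays of 0.03 and 0.04, varied least. The median SD was 0.11 for all tested probe sets with signals from 10000 to 20000. Rpl19 and Rpl39l were picked here for that small spread. The second Rpl19 probe set, at a mean signal of 801.2, had an SD of 0.47. At signals from 500 to 1000 the median SD was 0.27.

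The subunits are given side by side, and their difference was not tested. The 14 tested large subunit genes had a median change of 0.00, with 7 positive and 7 negative. The 14 tested small subunit genes had a median of -0.05, with 5 positive and 9 negative. Among genes with a signal of at least 5000, the median was 0.00 for 9 large subunit genes, with 5 positive, and -0.08 for 8 small subunit genes, with 6 negative. The single gene that passed was of the large subunit. Of the 35 probe sets of sufficient signal that name a ribosomal protein gene together with others, none passed, against 1.08% of all tested probe sets. Their median change was 0.00, and changes ran from -0.27 to 0.63. For the 22 with a signal of at least 5000 the median was -0.05, with 8 positive and 14 negative. Genotypes did not overlap for 11 of these 22, with Tslc1-/- lower for 9 and higher for 2, against 55.0% of all probe sets of that brightness.

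These ribosomal protein signals stood beside lower signals of late germ cell transcripts on the same arrays. Of 10 tested markers of elongating spermatids, 6 fell and none rose, with a median change of -0.52, and their summed signal was 581676 to 586022 in Tslc1+/+ and 392162 to 418694 in Tslc1-/-. An example is Oaz3, an antizyme of haploid germ cells, which fell 2.53-fold. Of 8 round spermatid markers, 4 fell and none rose, with a median change of -0.41. Of 6 spermatocyte markers 1 fell, Pgk2. Over all tested probe sets 0.840% fell, and of the 714 with a signal of at least 5000 it was 47. None of 6 spermatogonial, 8 Sertoli, 8 Leydig, 4 blood and macrophage and 2 epididymis markers passed, and the medians of these lists were 0.15, 0.15, -0.02, 0.50 and 0.02. As 1.08% of all tested probe sets passed, the lack of a call in lists this short says little. Whether the mix of cell types bears on the ribosomal protein signals was not tested.

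**Figure D4:**
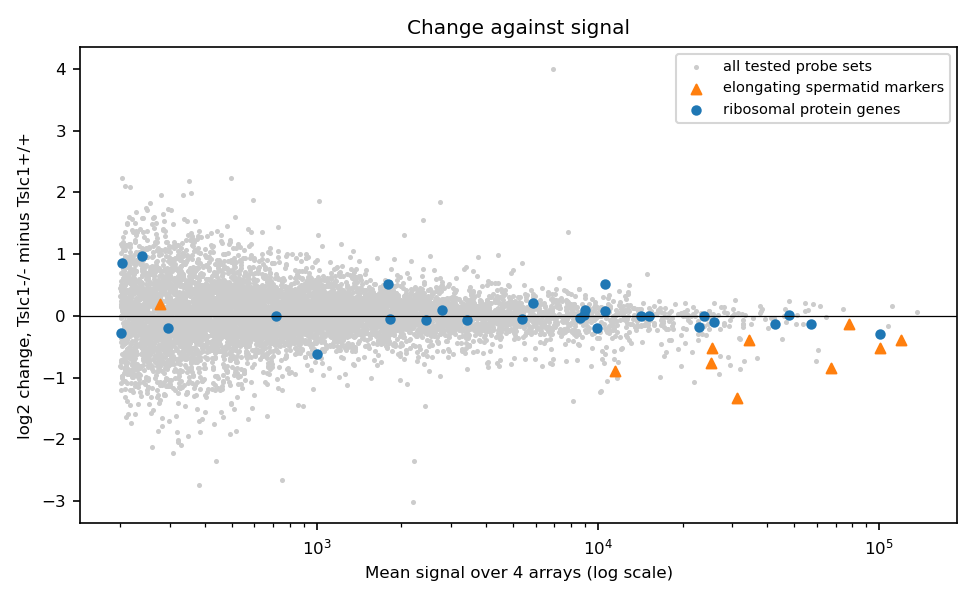
Log2 change, Tslc1-/- minus Tslc1+/+, against mean signal over the 4 arrays (log axis) for all 7975 tested probe sets in grey, the 28 ribosomal protein genes in blue and 10 elongating spermatid markers as orange triangles. At signals above 10000 the ribosomal protein genes lie near 0 apart from Rpl37a at 0.51 and Rpl41 at -0.30, whereas 6 of the spermatid markers were called lower.

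Other parts of the translation machinery were read from lists, whose counts stand beside the 1.08% of all tested probe sets that passed. Of 55 tested mitochondrial ribosomal protein genes none passed, 31 changes were positive and 24 negative, and the median was 0.03. The one with the smallest p was Mrps24, with a log2 change of -0.68 (limma, adjusted p = 0.325). Of 38 ribosome biogenesis factors none passed, and the median was -0.03. Gar1, a protein of the particles that modify ribosomal RNA, had the smallest p, with 4376 and 4272 in Tslc1+/+ and 2622 and 3150 in Tslc1-/- and a log2 change of -0.58 (limma, adjusted p = 0.0989). Of 18 genes for RNA polymerase I transcription none passed, with a median of 0.06 and Polr2l at -0.44 (limma, adjusted p = 0.364).

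Of 19 other genes with TOP messenger RNAs, 1 fell and none rose, against 0.840% lower over all tested probe sets, with a median of -0.10. That gene was Eef1d, which encodes the delta subunit of the elongation factor that reloads eEF1A. Its signals were 14251 and 15421 in Tslc1+/+ and 8965 and 8597 in Tslc1-/-, a 1.69-fold fall and a log2 change of -0.75 (limma, adjusted p = 0.0028). No ribosomal protein gene with a mean signal over 5000 moved by as much. Of 14 genes of TOR signalling none passed, with a median of 0.06 and Mtor itself at -0.37 (limma, adjusted p = 0.275). Of 7 genes of ribosomal stress and p53 none passed, with a median of 0.02 and Max at 0.41 (limma, adjusted p = 0.776). Of the ribosomal genes outside the symbol rule only Fau, which encodes a small subunit protein fused to a ubiquitin-like one, had a probe set of its own, a dim one with a log2 change of 0.72 (limma, adjusted p = 0.792).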

How the data were processed

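Testis RNA was measured on 4 Affymetrix arrays of the Mouse Genome U74 family. Per the labels' design text, the authors computed the intensity of each probe set with Microarray Suite (MAS5, also in the submitters' processing notes) on a linear scale and scaled every array globally. In the deposited values the mean after trimming 2% at each end was 1001 on each array. A genome build is not given in the sources used here. The number of arrays limits the precision: the smallest two-sided exact permutation p with 2 arrays per genotype is 0.333.

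The array has 12488 probe sets, from which 66 controls were removed. Among the remaining 12422, 10833 list 1 gene, 396 several and 1193 none. All 35 members matched RefSeq by Entrez identifier. Tests used log2(signal + 50) of the 7975 probe sets with a mean signal of at least 200, in limma 3.58.1 and R 4.3.3 (lmFit, eBayes with an intensity trend), with Benjamini-Hochberg adjustment over all of them, a threshold of 0.05 and 95% intervals from the same fit. The fit was tested on simulated data. Named genes were those called, the non-overlapping ones with the largest changes, the brightest, the least and most variable, X-linked genes, paralogues, common reference genes, genes with discordant probe sets and the member of each pathway list with the smallest p; Rpl8, Rpl7a, Rpsa, Rpl22, Rps20, Rps15, Rps14 and Rpl38 were added to account for every gene. The members and lists were chosen with earlier results of these data known. Alternatives changed the spread model, offset, filter, normalization, probe set choice and replicate block, or left out each array.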

Additional observations from a re-analysis of the deposited data

How the results depend on the processing

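Of the 13 alternatives, the number of ribosomal protein genes called was 1, Rpl37a, in 6. It was 0 without the intensity trend, 0 with all probe sets tested and 0 with any array left out, and 2 with the replicate number as a block, where Rpl41 also passed with its log2 change of -0.30 (limma, adjusted p = 0.0429). In each setting with 0 calls, 3 of these genes had an unadjusted limma p under 0.05. Over all tested probe sets, 86 passed; none did without the trend, 49 with the mean of all probe sets of a gene, and 37 to 43 with an array left out. The replicate numbers are not shown to pair the arrays: deviations of replicate 1 from the genotype means correlated with r = -0.00 between genotypes across tested probe sets. The block raised all calls from 86 to 239 and changed no other call among these genes. The median change of the genes was 0.047 with quantile normalization, and from -0.046 to 0.030 with an array left out. With quantile normalization the log2 changes of Rps7 and Rpl8 turned to 0.067 and 0.149. With probe sets of no suffix, Rps24 was at -0.93 and Rps4l at 0.75, and with the mean of all probe sets of a gene they were at -0.46 and 0.35, because other probe sets then enter. The causes of the other shifts were not tested. Signal sets the limit: below a signal of 500, the median SD over the arrays was 0.47 on the log2 scale.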
